A study of Mus musculus with 6 samples.

Results

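The genes described are 10 components of the desmosome and its plakophilin family, Dsg2, Dsg3, Dsc2, Dsc3, Jup, Pkp1, Pkp2, Pkp3, Pkp4 and Dsp. They were chosen by gene symbol from the 55487 genes of a bulk RNA sequencing count table, and each symbol matched a single gene. The libraries came from mouse lung tumours of the KP background, which every group shares. Control tumours carried sgNeo, a guide that leaves Lkb1 wild type, and the others carried sgLkb1, which mutates Lkb1, a tumour suppressor kinase encoded by Stk11. At 11 weeks after tumour initiation cells positive for GFP and negative for the leukocyte antigen CD45 were isolated by sorting, and 3 libraries were made per genotype. The labels do not state whether replicates came from separate animals or pooled lungs, so p-values measure the spread between these libraries, which may be technical. Pairs of libraries within a genotype differed by more than counting error, with a chi-square per degree of freedom between 38.7 and 193.

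Desmosomes are spot-like junctions that tie the keratin filaments of neighbouring epithelial cells together. Desmogleins and desmocollins are cadherins that span the membrane and bind their counterparts on the next cell. Plakoglobin (Jup) and the plakophilins are armadillo-repeat proteins that bind the cadherin tails, and desmoplakin (Dsp) connects them to keratin. Simple epithelia such as the alveolar lining mainly use Dsg2, Dsc2 and Pkp2, whereas Dsg3, Dsc3 and Pkp1 are typical of stratified epithelia. Pkp3 occurs in most epithelia, and Pkp4 also sits at adherens junctions.

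Total expected counts were between 26007503 and 41729299 per library. Stk11 was at 68.3, 33.4 and 82.7 CPM (counts scaled to a common library size) in sgNeo replicates 1, 2 and 3, and at 23.5, 25.6 and 25.3 CPM in sgLkb1 replicates 1, 2 and 3. Every sgLkb1 library thus lay below every sgNeo library, with transcript remaining (log2 fold change -1.31 with SE 0.30, adjusted p = 0.023 by edgeR). Only the fit without sgNeo replicate 2 kept the call when single libraries were omitted. The epithelial markers Epcam, Cdh1, Krt8 and Krt18 were abundant in both genotypes. Their summed level was 4758 to 5598 CPM in sgNeo and 6697 to 7956 CPM in sgLkb1. Each of the 4 lay higher in every sgLkb1 library than in any sgNeo library, as did 16.3% of all tested genes. Of them Epcam passed the test, from 501 ± 60.2 to 1073 ± 235 CPM (log2 fold change 1.10 with SE 0.21, adjusted p = 0.011 by edgeR). Krt8, Krt18 and Cdh1 did not pass (adjusted p = 0.075, 0.15 and 0.60 by edgeR), and Cdh1 had a log2 fold change of only 0.14. The direction of these epithelial markers was that of the desmosome genes that rose, and their part in those results was not tested. The lung markers Nkx2-1, Sftpc and Sftpb were lower in sgLkb1. Foxa2, also a lung marker, overlapped between the genotypes and did not pass (log2 fold change -0.40, adjusted p = 0.41 by edgeR).

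Of the 10 genes, 9 had enough counts to be tested, and 5 of them were higher in sgLkb1 and 0 lower. Among all 15978 tested genes 7.05% were higher and 8.6% lower at an edgeR adjusted p under 0.05. The 5 genes were Pkp1, Dsg3, Dsg2, Dsp and Pkp3. Dsg3 reached the count filter only through the sgLkb1 libraries, so it adds nothing to that count, and without it the count is 4 of 8. The median log2 fold change of those 8 was 0.63, against 0.02 over all tested genes. All sgLkb1 libraries lay above all sgNeo libraries for 5 of the 8, and such a separation upwards held for 16.3% of all tested genes. The members were chosen with earlier results of these data known, so these counts and medians describe the chosen genes and test nothing.

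**Figure D1:**
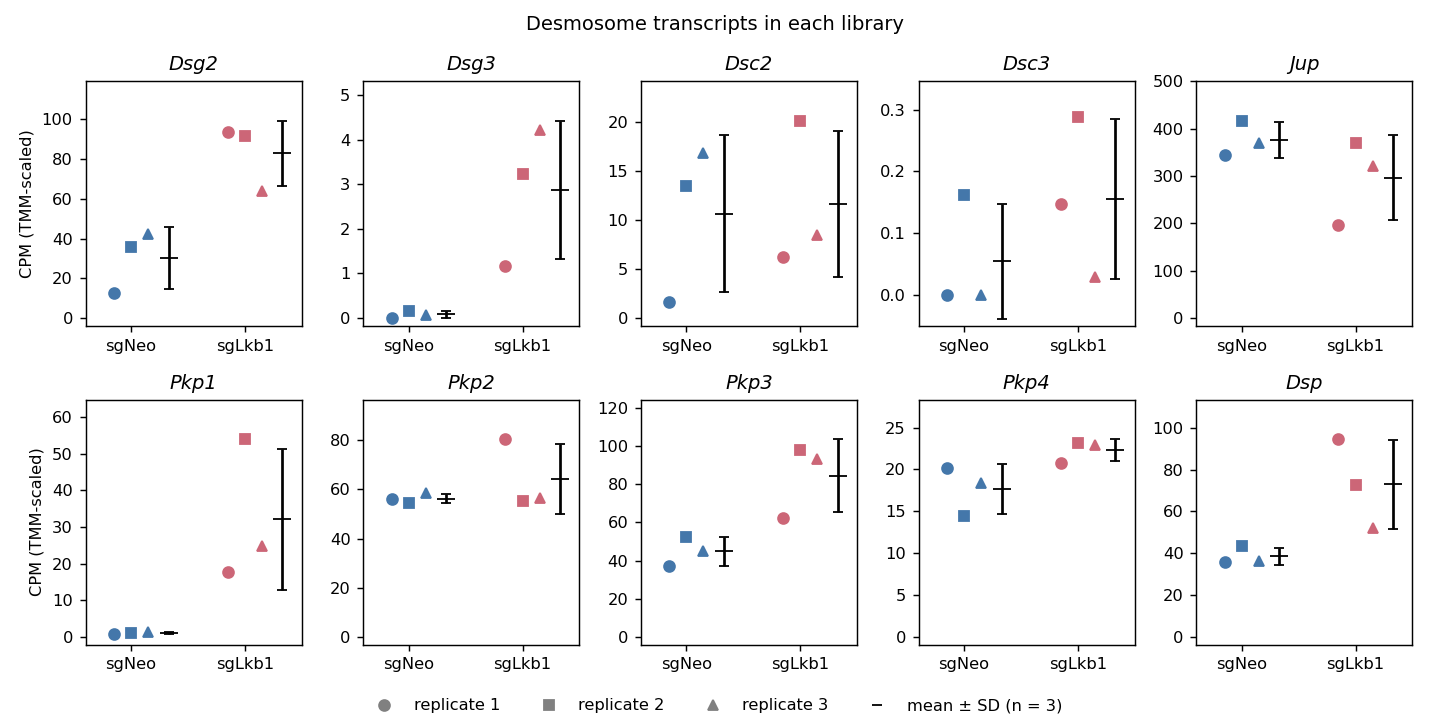
Level of each desmosome gene in every library, in CPM on TMM-scaled library sizes, with the vertical scale set for each gene; symbols are replicates and the bar is the mean ± SD (n = 3). Pkp1 and Dsg3 are near 0 in the sgNeo libraries and between 17.6 and 54.1 CPM (Pkp1) or 1.17 and 4.22 CPM (Dsg3) in sgLkb1, whereas Dsc2, Jup and Pkp2 overlap between the genotypes.

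Promoters of 3 members were taken from RefSeq (build GRCm38.p6). No promoter was listed for Pkp1, Pkp2 or Pkp3, and those of the cadherin genes were left out and not examined. The 250 bases before the annotated start are shown to set Dsp, which rose, beside Jup and Pkp4, which did not pass the test. Capitals mark GC boxes (GGGCGG on either strand), sites of the SP and KLF zinc-finger class.
Dsp, chr13:38151044-38151293, plus strand: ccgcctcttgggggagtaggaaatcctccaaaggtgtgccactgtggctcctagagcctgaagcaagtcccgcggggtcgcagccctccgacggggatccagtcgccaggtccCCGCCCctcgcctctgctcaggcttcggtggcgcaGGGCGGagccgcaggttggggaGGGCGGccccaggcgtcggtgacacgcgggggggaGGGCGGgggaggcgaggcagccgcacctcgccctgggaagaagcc
Jup, chr11:100397791-100398040, minus strand: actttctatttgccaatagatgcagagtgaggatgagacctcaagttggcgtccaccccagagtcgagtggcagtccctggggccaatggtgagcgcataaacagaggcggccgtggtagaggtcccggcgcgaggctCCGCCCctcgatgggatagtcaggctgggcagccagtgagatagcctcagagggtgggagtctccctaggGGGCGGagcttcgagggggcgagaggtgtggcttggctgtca
Pkp4, chr2:59160600-59160849, plus strand: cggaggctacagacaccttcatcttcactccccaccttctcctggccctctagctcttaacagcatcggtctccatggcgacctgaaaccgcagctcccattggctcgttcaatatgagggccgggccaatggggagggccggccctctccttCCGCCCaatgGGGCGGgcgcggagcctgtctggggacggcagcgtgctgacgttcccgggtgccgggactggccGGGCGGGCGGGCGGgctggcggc
The Dsp window held 4 GC boxes, the Jup window 2 and the Pkp4 window 5, of which 3 overlap each other. At least 1 GC box was present in 32.7% of all 32851 promoter windows of this length. The windows also shared a high content of G and C, at 72.4% for Dsp, 62% for Jup and 68.4% for Pkp4, against a median of 52.4% over all windows. No match was found in these 3 windows for AP-1 (TGANTCA, in 6.7% of all windows), the cyclic AMP response element (TGACGTCA, 1.5%), grainyhead-like factors (AACCGGTT, 0.1%), TEAD (GGAATG, 12.6%) or the E-box (CANNTG, 66.2%). Both strands were searched in each case. Pkp4 has a further annotated start whose window was searched but is not printed. That window held 2 E-boxes, CAGCTG and CAGGTG, and no GC box or match to the other motifs.

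Of the 4 plakophilins, Pkp1 and Pkp3 passed the test as higher in sgLkb1, whereas Pkp2 and Pkp4 did not pass. That alone does not show that these genes differ from each other, and their ratios are given below. Pkp1, which anchors desmosomes to keratin in stratified epithelia, lies at chr1:135871395-135919207 on the minus strand (GRCm38). It was at 0.64, 1.01 and 1.35 CPM in sgNeo replicates 1, 2 and 3 and at 17.6, 54.1 and 24.8 CPM in sgLkb1 replicates 1, 2 and 3. The genotypes did not overlap, and sgLkb1 replicate 2 stood highest, at about 3 times the level of sgLkb1 replicate 1. Pkp1 rose by a log2 fold change of 5.00 with SE 0.51 (adjusted p = 0.00096 by edgeR), from a mean of 1.00 ± 0.36 to 32.1 ± 19.3 CPM (SD, n = 3). The sgNeo level rested on 16, 25 and 34 counts, and the ratio of summed counts was 31.9 with an exact 95% interval of 25.4 to 40.6 for counting error alone. Omitting each of the 6 libraries in turn kept the call (edgeR adjusted p at most 0.0092), with log2 fold changes between 4.43 and 5.28.

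Pkp3, found in most epithelial desmosomes, lies at chr7:141078218-141090510 on the plus strand. Its level was 37.2, 52.4 and 44.9 CPM in the sgNeo libraries and 62.5, 97.9 and 93.3 CPM in the sgLkb1 libraries. The groups did not overlap, although sgLkb1 replicate 1 was closer to the controls than to the other sgLkb1 libraries. Pkp3 rose from 44.8 ± 7.61 to 84.6 ± 19.3 CPM (log2 fold change 0.92 with SE 0.21, adjusted p = 0.025 by edgeR). It passed in only 1 of 6 fits with a library omitted, the fit without sgLkb1 replicate 1, and its adjusted p reached 0.099.

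Pkp2, the main plakophilin of simple epithelia and heart (chr16:16213318-16272712, plus strand), was at 56.0, 54.5 and 58.4 CPM in sgNeo and 80.6, 55.4 and 56.4 CPM in sgLkb1. A single library, sgLkb1 replicate 1, stood above the others, and the remaining sgLkb1 values fell within the sgNeo range. Pkp2 did not pass the test (log2 fold change 0.19 with SE 0.18, adjusted p = 0.53 by edgeR), and without sgLkb1 replicate 1 its log2 fold change was 0.00050. Pkp4, also known as p0071 (chr2:59160850-59355208, plus strand), was at 20.2, 14.4 and 18.4 CPM in sgNeo and 20.7, 23.2 and 23.0 CPM in sgLkb1. All sgLkb1 libraries lay above all sgNeo libraries, by a narrow margin at replicate 1, and the difference did not pass (log2 fold change 0.34 with SE 0.19, adjusted p = 0.27 by edgeR).

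Levels of different genes can be compared only per length, so CPM was divided by the exon length in kilobases (CPM per kb). The summed plakophilin level was 24.4, 27.4 and 26.8 CPM per kb in sgNeo and 39.4, 52.2 and 45.3 CPM per kb in sgLkb1. Of that sum Pkp1 made up 0.52, 0.74 and 1.01% in the sgNeo libraries, against 8.88, 20.6 and 10.9% in the sgLkb1 libraries. Pkp2 made up 42.8, 37.1 and 40.7% in sgNeo and 38.1, 19.8 and 23.2% in sgLkb1. In sgLkb1 replicate 2 the share of Pkp1 slightly exceeded that of Pkp2, while in every other library Pkp2 was well above Pkp1. Pkp3 took 47.1 ± 5.44% in sgNeo and 50.9 ± 6.65% in sgLkb1, and was the plakophilin with the highest share in every library except sgNeo replicate 1, where Pkp2 was marginally higher.

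The difference between plakophilins was itself compared as a log2 ratio of CPM in each library, with 0.5 CPM added to each gene. The Pkp1 to Pkp2 ratio was -5.27 ± 0.33 in sgNeo and -1.12 ± 1.06 in sgLkb1 (SD, n = 3), a difference of 4.14. The corresponding differences were 3.41 for Pkp1 to Pkp3 and 3.97 for Pkp1 to Pkp4. In each of these 3 ratios every sgLkb1 library lay above every sgNeo library. Each gave p = 0.1 in an exact two-sided permutation test, the smallest that 3 against 3 libraries allow, and 0.175 after adjustment over the 7 ratios computed. The Pkp3 to Pkp2 ratio differed by 0.73, with overlapping libraries (exact permutation p = 0.2, adjusted 0.28).

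**Figure D2:**
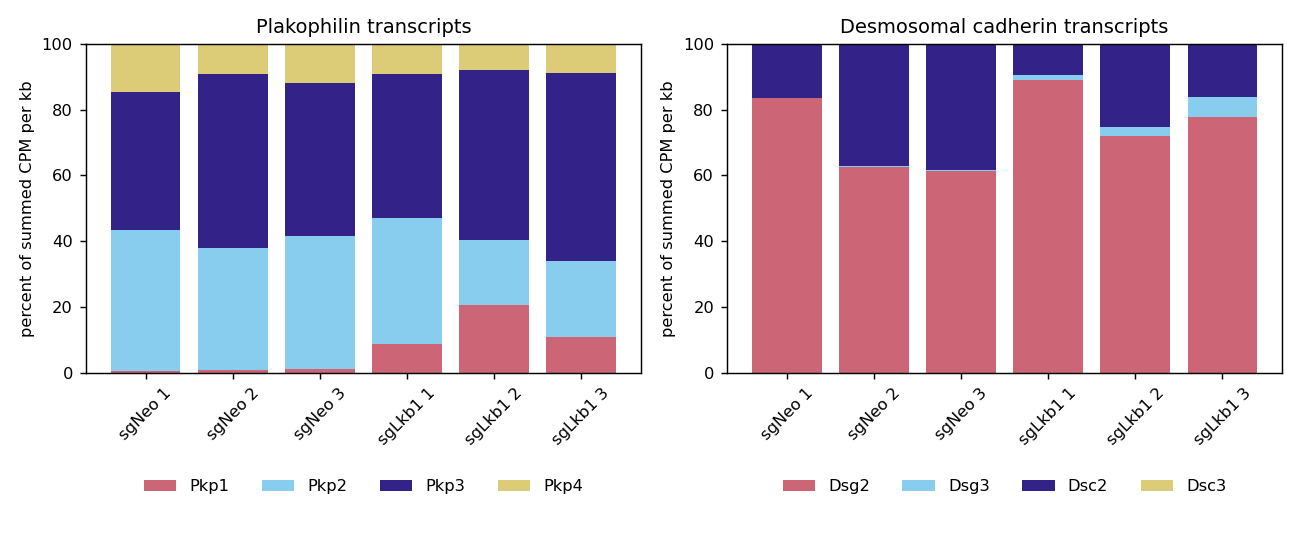
Share of each gene in the summed CPM per kb of the plakophilins (left) and of the desmosomal cadherins (right), one bar per library, in percent. Pkp1 takes from 0.52 to 1.01% of the plakophilin sum in sgNeo libraries and from 8.88 to 20.6% in sgLkb1; Dsg2 takes the greatest part of the cadherin sum in every library.

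The 4 cadherins lie in a cluster of 9 desmocollin and desmoglein genes on chromosome 18 that spans 643.6 kb, and neighbours in it differed widely. Dsg2, the desmoglein of simple epithelia, was at 12.8, 35.8 and 42.4 CPM in sgNeo and 93.4, 91.5 and 64.2 CPM in sgLkb1. All sgLkb1 libraries were higher, and sgNeo replicate 1 was far below the other controls. Dsg2 rose from 30.3 ± 15.5 to 83.0 ± 16.4 CPM (log2 fold change 1.45 with SE 0.40, adjusted p = 0.042 by edgeR). The call was kept only without sgNeo replicate 1, where the log2 fold change was 1.08, and was lost in the other 5 fits that left out a library (adjusted p up to 0.11).

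Dsg3, the desmoglein of basal layers of stratified epithelia and an antigen in pemphigus, lies 10.6 kb from Dsg2 in the same orientation. It had 0, 4 and 2 counts in sgNeo and 48, 123 and 147 counts in sgLkb1, or at most 0.16 CPM against 1.17, 3.23 and 4.22 CPM. The groups did not overlap, and sgLkb1 replicate 3 was highest. Dsg3 rose by a log2 fold change of 5.09 with SE 0.93 (adjusted p = 0.0095 by edgeR), but no sgNeo library reached the count filter, so a tested Dsg3 had to differ and this is a description only. The size of this fold is uncertain, since 3 counts correspond to 0.12 CPM in a sgNeo library. The ratio of summed counts was 34.8, with an exact 95% interval of 15.8 to 95.5 for counting error.

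Dsc2, the desmocollin of simple epithelia, varied more within each genotype than between them. It was at 1.60, 13.4 and 16.9 CPM in sgNeo and 6.26, 20.2 and 8.46 CPM in sgLkb1, so the groups overlapped (log2 fold change 0.13 with SE 0.74, adjusted p = 0.93 by edgeR). The sign of this difference turned without sgNeo replicate 1 (-0.39) or sgLkb1 replicate 2 (-0.50). Dsc3, a desmocollin of stratified epithelia, had 0, 4 and 0 counts in sgNeo and 6, 11 and 1 in sgLkb1, too few to be tested. Its ratio of summed counts was 2.95 with an exact 95% interval of 0.97 to 12.0, so a difference was not detectable at this depth. The other 5 genes of the cluster were nearly silent: Dsc1 had no counts, and Dsg1a, Dsg1b, Dsg1c and Dsg4 had at most 15 counts over the sgNeo libraries and 0 over the sgLkb1 libraries.

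The summed cadherin level was 1.85, 6.92 and 8.34 CPM per kb in sgNeo and 12.7, 15.4 and 9.98 CPM per kb in sgLkb1. Dsg2 took from 61.5 to 89.1% of it in the 6 libraries and Dsc2 from 9.36 to 38.4%. Dsg3 made up at most 0.34% in sgNeo and 1.33, 3.00 and 6.06% in sgLkb1, so the stratified-type cadherin remained a small part of the total even where it had risen. The log2 ratio of Dsg3 to Dsg2 differed between genotypes by 0.83 with overlapping libraries (exact permutation p = 0.3, adjusted 0.35). The added 0.5 CPM exceeded every sgNeo value of Dsg3. With 0.1 CPM added the difference was 2.37 and the libraries separated (exact permutation p = 0.1), and with 1 CPM added it was 0.19 (p = 0.8 by the same exact test), so its size is not settled by these counts. The ratio of Dsc3 to Dsc2 differed by -0.20 (exact permutation p = 0.9), and by 0.25 with 0.1 CPM added.

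Of plakoglobin and desmoplakin, which join the cadherins to keratin, only desmoplakin passed the test. Dsp (chr13:38151294-38198577, plus strand) was at 35.8, 43.2 and 36.2 CPM in sgNeo and 94.7, 72.7 and 52.0 CPM in sgLkb1. The groups did not overlap, and sgLkb1 replicate 3 was nearest to the controls. Dsp rose from 38.4 ± 4.17 to 73.1 ± 21.3 CPM (log2 fold change 0.93 with SE 0.23, adjusted p = 0.028 by edgeR), a call kept only without sgLkb1 replicate 1 or 3 when single libraries were omitted (adjusted p otherwise up to 0.11). Jup (chr11:100368958-100397763, minus strand) was at 344, 417 and 369 CPM in sgNeo and 196, 370 and 322 CPM in sgLkb1. The groups overlapped, sgLkb1 replicate 1 was the lowest library, and Jup did not pass (log2 fold change -0.35 with SE 0.24, adjusted p = 0.37 by edgeR).

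The log2 ratio of Jup to Dsp was 3.24, 3.26 and 3.33 in sgNeo and 1.05, 2.34 and 2.62 in sgLkb1. Every sgLkb1 library was below every sgNeo library, by 1.28 on average (exact permutation p = 0.1, adjusted 0.175). The tight sgNeo values, with an SD of 0.047, contrast with an SD of 0.84 in sgLkb1.

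Exons of Dsg2 and Dsp overlap those of other genes on the opposite strand, Gm16090 over 3.99% and Gm10129 over 5.17% of their exon bases. These genes had at most 5.07 counts in any library, beside at least 319 for Dsg2 and 893 for Dsp. No exon overlap was found for the other 8 members.

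**Figure D3:**
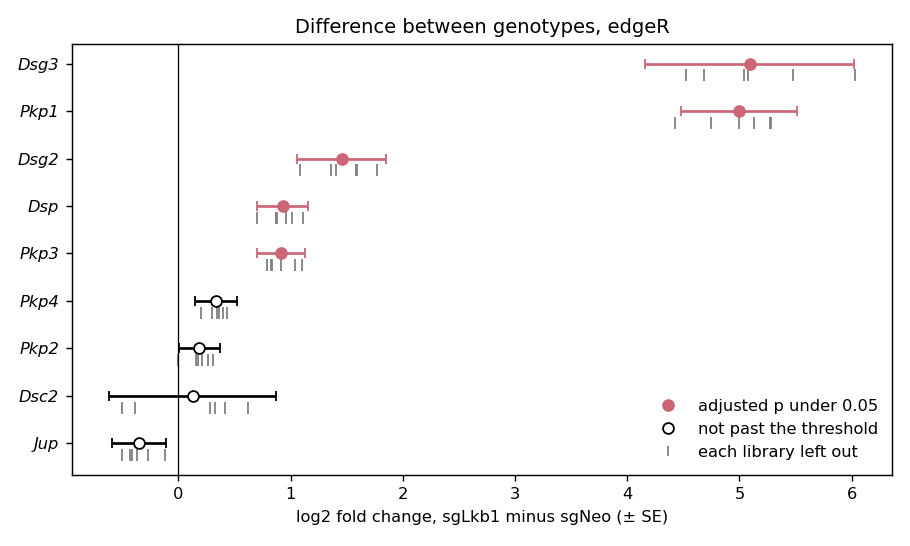
Log2 fold change (sgLkb1 minus sgNeo, horizontal axis, ± SE) of the 9 tested members from edgeR, with filled points for those past an adjusted p of 0.05 and grey ticks for the fits that left out each library in turn. Dsg3 and Pkp1 stand at 5.09 and 5.00, Dsg2, Dsp and Pkp3 between 0.92 and 1.45, and the ticks of Dsc2 fall on both sides of 0.

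Ranked per length, Jup had the highest mean level of the 10 genes in both genotypes, at 58.5 ± 5.83 CPM per kb in sgNeo and 46.0 ± 14.0 CPM per kb in sgLkb1. Pkp3 followed at 12.4 ± 2.10 and 23.4 ± 5.33, and Pkp2 at 10.5 ± 0.37 and 12.0 ± 2.66 CPM per kb. In sgNeo the ranges of Pkp3 and Pkp2 overlapped. Next came Dsp (3.98 ± 0.43), Dsg2 (3.67 ± 1.88), Pkp4 (3.09 ± 0.52) and Dsc2 (2.02 ± 1.52 CPM per kb), each overlapping its neighbour in that order. In sgLkb1 the libraries of Pkp3 lay above those of Pkp2, and from Pkp2 down each gene overlapped the next, through Dsg2 (10.0 ± 1.98), Dsp (7.57 ± 2.21), Pkp1 (6.40 ± 3.85) and Pkp4 to Dsc2. Pkp1 held the eighth place in sgNeo (0.20 ± 0.071 CPM per kb) and the sixth in sgLkb1, and Dsg3 and Dsc3 held the last places in both.

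The libraries with high values were not the same for every member. Among the 5 genes that rose, Pkp1 and Pkp3 were highest in sgLkb1 replicate 2, Dsg2 and Dsp in sgLkb1 replicate 1, and Dsg3 in sgLkb1 replicate 3. Replicate 1 of sgLkb1, highest for Dsp, was the lowest of its genotype for Pkp1, Pkp3 and Dsg3. Over all 6 libraries, sgNeo replicate 1 held the lowest value of 6 of the 9 tested members.

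Markers of other cell types were measured beside these genes. In sgLkb1 the 6 fibroblast markers summed to 174, 249 and 1383 CPM in replicates 1, 2 and 3, against 35.0 to 109 CPM in sgNeo, and 4 of 6 were higher. The mesothelial marker Upk3b was at 0.42, 1.73 and 16.5 CPM in the sgLkb1 replicates. Of 6 mesothelial markers 5 were tested, without Wt1, and 1 was higher (Msln). Their sum ranged from 172 to 428 CPM in sgNeo and from 818 to 1285 CPM in sgLkb1. Msln made up most of that sum in every library, at 813, 1275 and 1012 CPM in sgLkb1 replicates 1, 2 and 3. In sgLkb1 replicate 3, where the fibroblast markers and Upk3b peaked, Dsg2 and Dsp were at their lowest of the genotype and Dsg3 at its highest. Without that library the log2 fold changes were 5.13 for Pkp1, 4.68 for Dsg3, 1.59 for Dsg2, 1.11 for Dsp and 0.82 for Pkp3. The 6 basal-cell markers summed to between 1.64 and 10.8 CPM in sgNeo and to 24.2, 121 and 27.4 CPM in sgLkb1, with sgLkb1 replicate 2 highest, as for Pkp1. Krt14 made up most of that sum and was the only one called, whereas Krt5 was at 0.25, 13.0 and 0.35 CPM in the sgLkb1 replicates and Trp63 at most at 2.62 CPM. Without sgLkb1 replicate 2 the log2 fold change of Pkp1 was 4.43. The 6 endothelial markers summed to between 29.4 and 48.5 CPM in sgNeo and 60.6 and 108 CPM in sgLkb1, with Cdh5 and Kdr higher. For ciliated cells 1 of 5 was higher (Tmem212; sums 48.9 to 53.8 and 44.9 to 80.7 CPM). Of the 4 club-cell markers Cyp2f2 was lower (sums 452 to 658 and 228 to 677 CPM). Of the 6 leukocyte markers Cd79a was lower (sums 30.9 to 35.8 and 27.5 to 57.0 CPM). Pdgfra, among the 4 fibroblast markers, and Cd79a reached the count filter in all libraries only of the genotype where they were higher. No cardiac muscle marker was called, and their sums were 3.29 to 5.02 and 3.25 to 23.7 CPM, with Nppa at 0 in all libraries. Their part in the results, beyond these values, was not tested, and in bulk samples fewer cells of a type and less RNA per cell cannot be told apart.

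Genes that work next to desmosomes were described by group, over the same fit. Among all tested genes 7.05% were higher and 8.6% lower. A count of 2 in a list of 10 or 14 is too small to set apart from these shares. The lists were also chosen with earlier results of these data known, so their counts are descriptions. Of 6 tested other desmosome and plakin genes, only Perp passed. Perp, a membrane protein of desmosomes and a p53 target, rose from 107 ± 12.0 to 215 ± 55.7 CPM (log2 fold change 1.00 with SE 0.21, adjusted p = 0.016 by edgeR), and lost its call without any one of the sgNeo libraries (adjusted p up to 0.072). The plakins Ppl, Evpl and Plec were at 78.8 ± 6.40, 10.1 ± 4.88 and 128 ± 19.6 CPM in sgNeo and at 66.5 ± 6.71, 9.12 ± 2.43 and 148 ± 30.2 CPM in sgLkb1, and none passed. The median log2 fold change of this group was -0.15.

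Keratins, the filaments that desmosomes anchor, were higher for 7 of 15 tested members and lower for 0. Of the 15, 5 (Krt4, Krt6b, Krt13, Krt16 and Krt17) reached the count filter in all sgLkb1 libraries but in fewer than 3 sgNeo libraries, Krt13 being among the 7. Without these 5, 6 of 10 were higher, with a median log2 fold change of 1.11. Krt6a, a keratin of activated and squamous epithelium, rose from 2.71 ± 1.21 to 105 ± 90.4 CPM, and was highest in sgLkb1 replicate 2 at 201 CPM, as was Pkp1. Krt19 rose from 676 ± 98.1 to 1709 ± 445 CPM and Krt23 from 137 ± 9.31 to 253 ± 51.2 CPM. Krt8, the major keratin of simple epithelia, was at 2052 ± 246 and 3075 ± 306 CPM short of the threshold (edgeR adjusted p = 0.075), although it passed with DESeq2 (adjusted p = 0.0036). When sgNeo replicate 1 was omitted 2 keratins passed (Krt19 and Krt6a), and when sgNeo replicate 2 was omitted only 1 did (Krt6a). Omitting sgLkb1 replicate 2 left 3, and omitting sgLkb1 replicate 3 left 4.

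The other junctions did not move in a single direction. Of 14 adherens junction genes 2 were higher and 2 lower, with a median log2 fold change of 0.13. Ctnnd2, a neural relative of the plakophilins (delta-catenin), fell from 13.0 ± 2.44 to 2.57 ± 2.09 CPM, and Nectin1, a cell adhesion molecule, fell from 8.69 ± 1.78 to 3.43 ± 0.76 CPM. Cdh3, or P-cadherin, rose from 2.14 ± 0.43 to 5.75 ± 1.19 CPM, and Ctnnb1, or beta-catenin, the closest relative of Jup, rose from 928 ± 27.7 to 1495 ± 233 CPM. Cdh1, or E-cadherin, was at 949 ± 59.4 and 1047 ± 63.8 CPM, with an adjusted p of 0.60 by edgeR. Of these counts 0 higher calls were left without any one sgNeo library or without sgLkb1 replicate 2, 1 without sgLkb1 replicate 3, and 4 were made without sgLkb1 replicate 1. The lower calls numbered 0 without sgNeo replicate 1 or 3, and 1 without sgNeo replicate 2, sgLkb1 replicate 1 or sgLkb1 replicate 2.

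Of 14 tight junction genes 2 were lower and 0 higher (median -0.0046). Pard3, a polarity scaffold, fell from 60.4 ± 4.30 to 36.8 ± 3.61 CPM, and the cytoplasmic plaque protein Cgn fell from 130 ± 5.43 to 83.1 ± 9.43 CPM. Ocln was at 131 ± 25.2 and 131 ± 19.5 CPM. The number lower was 0 without sgNeo replicate 1 or 2 and 1 without sgNeo replicate 3 or sgLkb1 replicate 2. With library totals in place of scaled library sizes the number was 0, and the calls of Nectin1, Pard3 and Cgn were lost.

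Hemidesmosomes anchor keratin to the basement membrane, and 3 of 7 tested genes of these structures were higher, with 0 lower. Itgb4, the integrin subunit that defines them, rose from 22.3 ± 7.60 to 82.1 ± 20.3 CPM (log2 fold change 1.88 with SE 0.30, adjusted p = 0.0053 by edgeR). Lama3, a laminin-332 chain, rose from 39.5 ± 4.35 to 99.98 ± 43.9 CPM and Itga6, the partner of Itgb4, from 106 ± 5.43 to 197 ± 56.5 CPM. Lamb3, another laminin-332 chain, was at 286 ± 10.6 and 184 ± 41.1 CPM, with every sgLkb1 library below every sgNeo library. It did not pass with edgeR (log2 fold change -0.63, adjusted p = 0.062), but was lower with DESeq2. The number higher was 1 without sgNeo replicate 1 or 2. The squamous differentiation list had 4 of 10 tested genes higher and 0 lower, with 2 higher without sgNeo replicate 2. Lypd3 rose from 0.98 ± 0.33 to 8.53 ± 3.59 CPM, the transglutaminase Tgm1 from 51.5 ± 2.58 to 112 ± 24.6 CPM, and the cornified envelope precursor Sprr1a from 65.7 ± 21.2 to 174 ± 56.0 CPM. Serpinb5 was the fourth and passed in only 1 of 6 fits with a library omitted, while Ivl, or involucrin, was at 23.0 ± 12.7 and 19.0 ± 5.74 CPM without passing. Dmkn, of the same list, went the other way, at 115 ± 13.0 and 53.2 ± 27.7 CPM, with every sgLkb1 library below every sgNeo library. It did not pass with edgeR (log2 fold change -1.12, adjusted p = 0.088).

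Among 13 tested epithelial transcription factors 3 were higher, with 0 without sgNeo replicate 1 or 2. Elf3 rose from 172 ± 4.73 to 296 ± 2.03 CPM, Klf5 from 183 ± 8.65 to 294 ± 13.8 CPM and Klf4 from 12.7 ± 1.94 to 29.5 ± 13.3 CPM. Trp63, the regulator of stratified epithelium, was at 0.94 ± 1.08 and 1.36 ± 1.16 CPM, short of the threshold. The grainyhead-like factors Grhl1, Grhl2 and Grhl3 had edgeR adjusted p of 0.92, 0.44 and 0.69. Of 10 tested genes in a list of shedding and modifying enzymes 2 were higher. Adam10, a sheddase that cleaves cadherins, rose from 177 ± 12.8 to 455 ± 117 CPM (log2 fold change 1.36 with SE 0.21, adjusted p = 0.0049 by edgeR). Plcd1, a phospholipase and so not itself an enzyme that sheds or modifies desmosomal proteins, rose from 2.74 ± 0.49 to 11.2 ± 5.02 CPM. Without sgNeo replicate 1 or 2 only Adam10 of these passed.

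**Figure D4:**
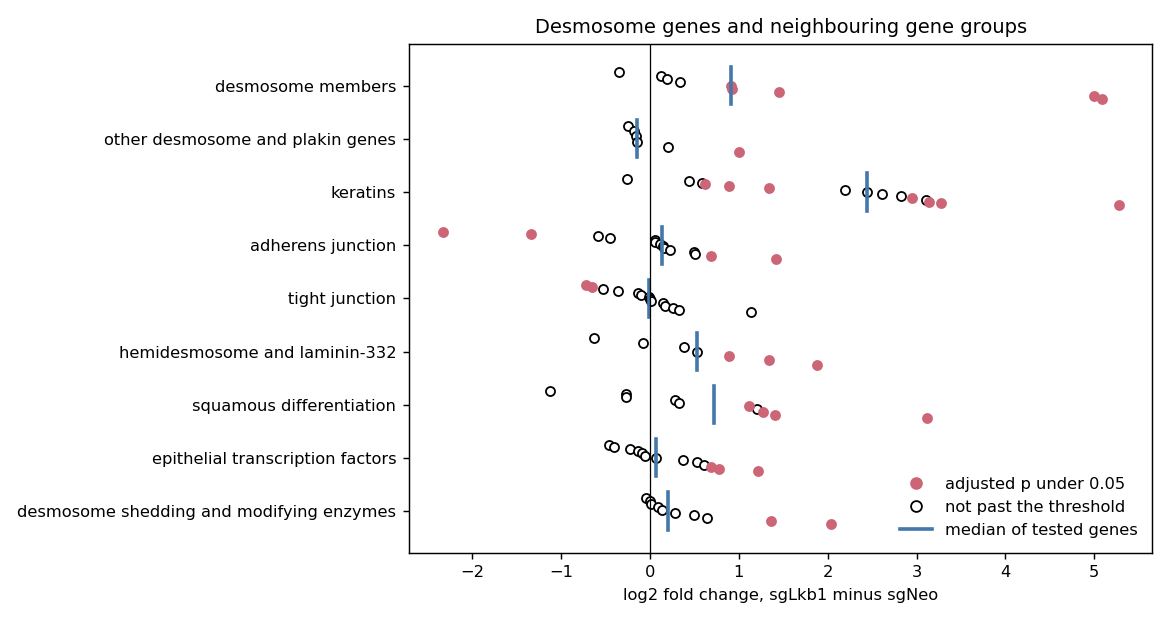
Log2 fold change (sgLkb1 minus sgNeo, horizontal axis) of each tested gene in the desmosome set and in 8 neighbouring gene groups; filled points passed an edgeR adjusted p of 0.05 and blue bars are group medians. The medians drawn for keratins (2.45) and desmosome genes (0.92) include genes that reached the count filter through sgLkb1 only and are 1.11 and 0.63 without them, beside 0.13 for adherens and -0.0046 for tight junction genes.

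Over the 6 libraries, the genes whose log2 CPM was most like that of Pkp1 among 10472 genes compared were Tcf7, Ints10, Pir, Ncmap and Myzap. Pearson's r was 0.999 for Tcf7 and at least 0.996 for the others. These values describe 6 points that fall into 2 genotypes, and any gene that differs between them scores high. Tcf7, a Wnt pathway transcription factor, was at 2.29, 2.71 and 2.87 CPM in sgNeo and 10.1, 18.5 and 12.5 CPM in sgLkb1. Like Pkp1, it was highest in sgLkb1 replicate 2 and lowest of that genotype in replicate 1. Myzap, a protein of heart intercalated discs, was at 4.05, 5.26 and 6.45 CPM in sgNeo and 14.9, 24.2 and 18.1 CPM in sgLkb1.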

How the data were processed

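The authors deposited expected counts per gene, not normalized. FastQC, STAR, RSEM, DESeq2 and build GRCm38 are named per the submitters' processing notes; versions, annotation release and strandedness are not stated in the sources used. Reads that match similar genes are shared out as fractions in such counts. Where exons overlap on opposite strands, the source of a read is uncertain.

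Counts were rounded, filtered with filterByExpr (15978 of 55487 genes kept) and TMM-scaled in edgeR 4.0.16 (R 4.3.3); CPM refers to scaled library sizes. Genotypes were compared by edgeR's quasi-likelihood test (two-sided, genotype only, Benjamini-Hochberg over all tested genes, threshold 0.05), with log2 fold change as sgLkb1 minus sgNeo and SE as its size divided by the square root of F. Exon lengths came from GENCODE M21 (GRCm38), which matched 55227 gene IDs. Intervals cover counting error only.

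The members and lists were chosen with earlier results of these data known. Genes named beside the members were Stk11, the first gene of each list, up to 3 called genes per list with the lowest p, and the 5 most like the called member with the lowest p (mean of at least 5 CPM). Others were named after their values were seen: Ctnnb1, Serpinb5, Lamb3, Dmkn, the plakins, the grainyhead-like factors and genes of the cadherin cluster. The test was tried on simulated data with 15576 genes, where it recovered 24% of genes changed 2-fold, 92% changed 4-fold and called 6 of 15376 unchanged genes. Alternatives were other scalings and filters, DESeq2 1.42.0, limma-voom (limma 3.58.1), a replicate block, other pseudocounts and each library left out. Library totals without scaling factors were added after seeing the data.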

Additional observations from a re-analysis of the deposited data

How the results depend on the processing

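Pkp1, Dsg3, Dsg2, Dsp and Pkp3 were the 5 members past the threshold under RLE and upper-quartile scaling, without the 10 most abundant genes, without a count filter, with CPM of at least 1 in 3 libraries, with DESeq2, limma-voom and the replicate block, and with library totals. Under the filter of 1 CPM in 3 libraries, Pkp1 and Dsg3 were tested only through their sgLkb1 libraries, so that setting adds nothing for them. Pkp1 was at 0.64 CPM in sgNeo replicate 1. With a library left out, 2 to 4 members passed, Pkp1 and Dsg3 (tested only through its sgLkb1 counts) among them each time, and 0 were lower. Over those fits the log2 fold changes ran from 4.43 to 5.28 (Pkp1), 4.52 to 6.03 (Dsg3), 1.08 to 1.77 (Dsg2), 0.70 to 1.11 (Dsp), 0.79 to 1.10 (Pkp3), 0.00050 to 0.31 (Pkp2), 0.20 to 0.44 (Pkp4), -0.50 to -0.12 (Jup) and -0.50 to 0.62 (Dsc2). The value of 6.03 for Dsg3 is edgeR's own and no measured fold, since few counts remained in sgNeo. Over all genes 1127 were higher and 1374 lower; with a library left out the numbers ran from 447 to 1368 and from 682 to 1412. Without a filter 1917 were higher, and with DESeq2 1819. Library totals moved the median of all genes by 0.24 (log2), and gave 2191 higher and 896 lower. Relative to that shift the members kept their direction; Jup was at -0.085. There 1 adherens and 0 tight junction genes were lower and 5 hemidesmosome genes higher.

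For the lists, 1 hemidesmosome gene (Lamb3) was lower with DESeq2 and with the replicate block, and 1 squamous gene (Dmkn) was lower with DESeq2, with the block and without a filter. With a library left out, the numbers higher ran from 0 to 1 (other desmosome genes), 1 to 7 (keratins), 0 to 4 (adherens), 1 to 3 (hemidesmosome), 2 to 4 (squamous), 0 to 3 (transcription factors) and 1 to 2 (enzymes), and the numbers lower from 0 to 2 (adherens) and 0 to 2 (tight junction). Whether the replicate numbers pair the libraries is not settled. Deviations from the group means correlated by 0.13, -0.021 and 0.11 for numbers 1, 2 and 3 over 15978 genes. Libraries of unlike number were not compared in this way. With the replicate block the log2 fold change was 4.89 for Pkp1 and 0.90 for Pkp3, and 1336 genes were higher and 1544 lower. The Dsc3 to Dsc2 difference reversed to 0.25 with 0.1 CPM added, and with a library left out it ran from -0.83 to 0.70. The other ratio differences then ran from 3.60 to 4.66 (Pkp1 to Pkp2), 3.08 to 3.60 (Pkp1 to Pkp3), 3.55 to 4.26 (Pkp1 to Pkp4), 0.52 to 1.11 (Pkp3 to Pkp2), 0.35 to 1.37 (Dsg3 to Dsg2) and -1.58 to -0.80 (Jup to Dsp). The cause of these changes was not tested. Depth limits Dsc3 and the sgNeo level of Dsg3.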
